A study of Mus musculus with 50 samples.

Results

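The regions described here are 1930 binding sites of SUZ12 in wild-type (WT) mouse ESCs that carried H3K27me3 and had no overlapping SUZ12 peak in any of 3 mutant lines. They were selected by overlap of peak lists: a WT SUZ12 peak had to share at least 1 bp with a WT H3K27me3 peak and none with a SUZ12 peak of the *Ezh2* Y726D, *Ezh1/2* dKO or *Ezh2* KO line. Of the 5404 WT SUZ12 peaks, 4287 overlapped an H3K27me3 peak, and the 1930 lost peaks made up 45.0% of these (95% CI 43.5 to 46.5). The other 2357 marked peaks, kept in at least 1 of the 3 lines, and the 1117 SUZ12 peaks without a WT H3K27me3 peak (unmarked) served for comparison. Among the kept peaks, 1210 overlapped a SUZ12 peak in *Ezh2* KO ESCs, 257 in *Ezh1/2* dKO ESCs and 2168 in *Ezh2* Y726D ESCs. The WT lists of SUZ12 and H3K27me3 and the SUZ12 lists of the 3 mutants thus define the lost peaks, and values from them are given as a description.

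PRC2 is the Polycomb complex that methylates lysine 27 of histone H3. SUZ12 is a core subunit of every form of it, and EZH1 and EZH2 are its alternative catalytic subunits. In ESCs, PRC2 and H3K27me3 occupy CpG-rich promoters of genes for later development, most of which are silent. The same lysine carries acetylation (H3K27ac) at active promoters and enhancers, and a given tail cannot carry both.

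The cells were the WT line E14 and CRISPR/Cas9-edited ESCs derived from E14TG2a and grown in 2i/LIF medium with serum. In *Ezh2* KO cells *Ezh2* was excised and in *Ezh1/2* dKO cells both *Ezh1* and *Ezh2*. The *Ezh2* Y726D cells carry a catalytically inactive EZH2 and the *Ezh2* R685C cells another EZH2 point substitution, and both were made in *Ezh1* KO cells, so that neither line has EZH1. The SUZ12 and H3K27me3 samples named for Y726D without the *Ezh1* knockout were taken as this same line. For HA, *Ezh1/2* dKO cells given back EZH1 with an HA tag were profiled beside untagged *Ezh1/2* dKO cells as a control. Each ChIP-seq or ATAC-seq list came from 1 library, so no difference between lines or classes of peaks was tested, and whether a line rests on 1 clone is not given in the sources used here. Shares are given with Wilson 95% confidence intervals, which cover counting error only. The reads behind the peak lists are unknown, and scaling by spiked Drosophila chromatin has no part in them, so loss of a peak and a shallower library cannot be told apart.

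The SUZ12 lists held 1578 peaks in *Ezh2* KO, 317 in *Ezh1/2* dKO, 3366 in *Ezh2* Y726D and 3231 in *Ezh2* R685C ESCs. Of the RNA libraries, the deleted genes were low where the labels say so: normalized counts of *Ezh2* were 598 and 546 in WT, 1.05 and 0.968 in *Ezh2* KO and 0.824 and 1.78 in *Ezh1/2* dKO ESCs, and *Ezh1* lay between 14.01 and 24.1 in the 4 libraries of the *Ezh1/2* dKO and *Ezh2* Y726D lines against 227 to 378 in the other 4. The summed count of 6 ESC genes (*Pou5f1*, *Nanog*, *Sox2*, *Zfp42*, *Esrrb* and *Klf4*) was between 7308 and 8651 in the 8 libraries.

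The base composition of the sites is shown first, on the 300 bases around the summits of the 3 strongest lost peaks that lie within 1 kb of a protein-coding transcription start site (TSS), that at *Spry4* left out. They belong to *Nt5e*, which encodes the surface enzyme CD73 that makes adenosine, *Pou4f2*, a POU homeodomain factor of retinal ganglion cells, and *Hoxc11*, a homeotic gene of the posterior body axis. The 2 strongest kept peaks of the same kind follow, at *Gm1337* and *Sema5b*, a semaphorin of axon guidance, because they show how much denser in CpG a kept site can be. All are read from the plus strand of mm9, and capitals mark each CpG.
Nt5e, lost, chr9:88222427-88222726: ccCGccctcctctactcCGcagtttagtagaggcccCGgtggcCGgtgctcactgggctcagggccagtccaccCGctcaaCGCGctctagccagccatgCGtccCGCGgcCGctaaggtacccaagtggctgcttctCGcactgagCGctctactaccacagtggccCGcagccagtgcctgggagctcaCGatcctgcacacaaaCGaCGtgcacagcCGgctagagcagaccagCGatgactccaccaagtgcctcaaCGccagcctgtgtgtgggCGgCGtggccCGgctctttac
Pou4f2, lost, chr8:80959075-80959374: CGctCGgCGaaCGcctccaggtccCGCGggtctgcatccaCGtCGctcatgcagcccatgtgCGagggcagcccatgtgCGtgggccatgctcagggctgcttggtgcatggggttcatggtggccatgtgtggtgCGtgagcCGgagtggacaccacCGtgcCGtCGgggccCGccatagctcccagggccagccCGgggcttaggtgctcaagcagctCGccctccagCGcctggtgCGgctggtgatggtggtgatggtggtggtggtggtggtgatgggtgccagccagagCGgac
Hoxc11, lost, chr15:102786280-102786579: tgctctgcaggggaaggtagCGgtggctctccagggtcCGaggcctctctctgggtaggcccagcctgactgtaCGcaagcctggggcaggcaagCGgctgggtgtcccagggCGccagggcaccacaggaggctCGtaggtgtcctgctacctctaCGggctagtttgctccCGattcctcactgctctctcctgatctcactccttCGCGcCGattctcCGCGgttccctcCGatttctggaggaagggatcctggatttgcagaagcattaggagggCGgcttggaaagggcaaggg
Gm1337, kept, chr2:118528855-118529154: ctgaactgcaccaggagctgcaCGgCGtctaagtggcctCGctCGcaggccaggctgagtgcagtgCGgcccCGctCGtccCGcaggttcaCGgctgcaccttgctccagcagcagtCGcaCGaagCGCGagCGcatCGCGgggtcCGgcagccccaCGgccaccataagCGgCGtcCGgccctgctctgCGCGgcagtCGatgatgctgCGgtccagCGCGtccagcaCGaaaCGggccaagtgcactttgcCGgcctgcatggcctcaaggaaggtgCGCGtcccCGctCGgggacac
Sema5b, kept, chr16:35541466-35541765: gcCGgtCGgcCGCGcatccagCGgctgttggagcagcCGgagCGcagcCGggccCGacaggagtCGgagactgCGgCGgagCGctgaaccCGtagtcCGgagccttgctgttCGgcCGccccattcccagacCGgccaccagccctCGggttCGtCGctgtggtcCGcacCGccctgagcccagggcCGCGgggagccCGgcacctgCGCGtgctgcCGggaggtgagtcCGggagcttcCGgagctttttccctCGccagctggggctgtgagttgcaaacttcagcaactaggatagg
The 3 lost windows hold 23, 21 and 15 CpGs in the order printed, and the 2 kept windows hold 34 and 32. The observed over expected CpG ratio, which sets the CpG number against that expected from the C and G content, was 0.727, 0.607 and 0.511 in the lost windows and 0.936 and 0.855 in the kept windows. GC content lay closer together, at 65.7%, 68.7% and 62.7% in the lost windows and 69.7% and 70.7% in the kept ones. The printed peaks differed in WT strength, with a -log10 p of 99.5, 97.2 and 90.3 for the lost and 201 and 195 for the kept. In their quintile of WT strength, the strongest, the median CpG ratio was 0.762 in lost and 0.831 in kept peaks. The printed windows thus lie further apart than these medians.

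Over all sites, too, lost peaks had the lower GC content and fewer CpGs. The 300 bases around the summit had a median GC content of 61.7% in lost, 66.7% in kept and 65.0% in unmarked SUZ12 peaks, against 57.3% around all 69963 annotated TSSs. The median number of CpGs was 18 in lost peaks, 26 in kept peaks, 23 in unmarked peaks and 11 around TSSs. A GC content of at least 50% together with a CpG ratio of at least 0.6, a usual criterion of CpG islands, was met by 56.7% of lost peaks (95% CI 54.5 to 58.9), 87.6% of kept peaks and 77.8% of unmarked peaks. Lost peaks were thus the least CpG-rich of the 3 classes of SUZ12 peaks, although 1095 of the 1930 met the island criterion.

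**Figure D1:**
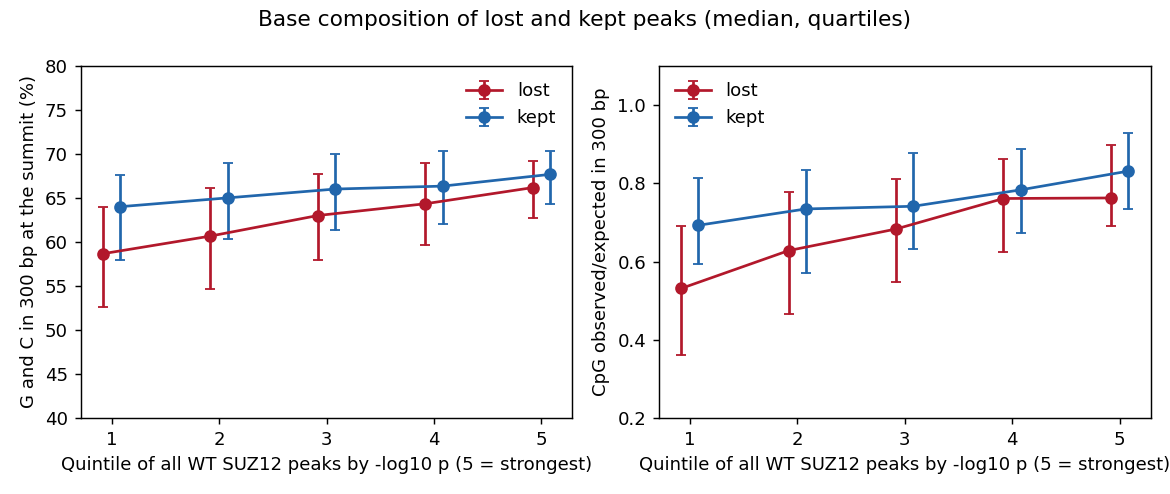
Median GC content (left, %) and observed over expected CpG ratio (right) of the 300 bases around the summit, for lost and kept peaks in quintiles of all WT SUZ12 peaks by -log10 p, with quartiles as bars. The lost peaks have the lower median in each quintile, with a CpG ratio of 0.531 against 0.693 in the weakest quintile.

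Lost and kept peaks were also compared within ranges of WT strength, since the selection used the WT peaks. All WT SUZ12 peaks were divided into quintiles by -log10 p, with bounds at 13.1, 18.6, 28.7 and 52.9. The median CpG ratio of lost peaks rose over the quintiles from 0.531 through 0.628, 0.683 and 0.761 to 0.762, and that of kept peaks from 0.693 through 0.734, 0.741 and 0.783 to 0.831. In each quintile the lost peaks had the lower median. Strength was not matched within a quintile: the strongest ran up to a -log10 p of 201, while no lost peak exceeded 106. The part of such differences in the lower medians was not tested. The windows were also searched on both strands for 6 short motifs, of which GGGCGG and GGCGGGA can share bases. CGCG occurred in 67.8% of lost and 88.3% of kept peaks and 46.9% of TSS windows, and GGGCGG, the core of the GC box bound by Sp factors, in 43.0%, 50.4% and 40.9%. GAGAGA had the larger share in lost peaks, with 23.5% (21.7 to 25.5) against 17.9% (16.4 to 19.5), and 23.8% of TSS windows held it. The motif GGCGGGA occurred in 13.1% of lost peaks, 15.6% of kept peaks and 13.3% of TSS windows. The E-box CACGTG occurred in 6.01%, 5.56% and 6.76%. For the ETS motif CCGGAAG the shares were 3.21%, 3.73% and 10.2%.

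In WT ESCs the lost peaks were narrow and weak. Their median width was 641 bp (quartiles 437 and 986.5) against 1421 bp in kept peaks, and their median -log10 p was 17.4 (quartiles 12.6 and 24.2) against 46.5. Of the marked peaks in the weakest quintile, 509 of 583 were lost (87.3%), followed by 539 of 702 (76.8%), 532 of 900 (59.1%) and 300 of 1010 (29.7%), and in the strongest quintile 50 of 1092 (4.58%). The share of lost among marked peaks lay between 33.7% on chromosome 16 and 55.4% on chromosome 12 over the chromosomes. At the edge of the rule, the lost peaks at *Nr3c2*, *Speg* and *Espn* lay 15, 21 and 22 bp from an *Ezh2* KO SUZ12 peak, while the kept peaks nearest to *Gm9913*, *Itga11* and *Agap2* overlapped a mutant peak by 5, 21 and 28 bp. Within 1 kb of a SUZ12 peak of the 3 mutants lay 378 of the lost peaks (19.6%).

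Lost peaks lay mostly near genes, with a smaller share at a start site than kept peaks. A protein-coding TSS lay within 1 kb of 59.8% of lost, 74.0% of kept and 73.1% of unmarked peaks, and within 5 kb of 77.8% (1502 peaks), 84.8% and 82.8%. The summit lay in an exon in 30.5% of lost peaks, in an intron in 33.9% and outside annotated genes in 35.6%, against 49.98%, 28.4% and 21.6% of kept peaks. A kept peak lay within 5 kb of 637 lost peaks (33.0%) and thus flanked a site that still held SUZ12 in a mutant, while 1293 lay alone. The flanking peaks were less CpG-rich than the solitary ones, with a median GC content of 57.3% against 63.7% and a median CpG ratio of 0.551 against 0.691.

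The 10 strongest lost peaks were at *Spry4*, *Nt5e*, *Pou4f2*, *Hoxc11*, *Tcfap2a*, *Bmi1*, *Hoxc8*, *Meis2*, *Tet3* and *Sdc1*, with -log10 p from 106 down to 75.6. *Spry4* encodes an inhibitor of FGF receptor signalling, *Tcfap2a* the factor AP-2 alpha of neural crest and epidermis, *Bmi1* a subunit of the other Polycomb complex, PRC1, *Meis2* a homeodomain cofactor of HOX proteins, *Tet3* an enzyme that oxidizes methylated cytosine, and *Sdc1* the heparan sulfate proteoglycan syndecan. The peaks at *Nt5e* (chr9:88222129-88223353), *Pou4f2* (chr8:80958242-80960551) and *Hoxc11* (chr15:102783999-102788407) covered the TSS, as did those at *Tcfap2a* (chr13:40823200-40826451), *Bmi1* (chr2:18599335-18600280), *Hoxc8* (chr15:102820888-102823685), *Meis2* (chr2:115886031-115890735) and *Sdc1* (chr12:8778047-8780146). The peak assigned to *Tet3* (chr6:83406654-83407751) lay 14982 bp from its TSS, outside annotated genes. The peak at *Tcfap2a* lay only 63 bp from a kept peak, whereas those at *Spry4*, *Nt5e*, *Pou4f2*, *Meis2* and *Sdc1* had none within 386484 bp.

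The lost sites divided unevenly over the Hox clusters, a comparison chosen after the values were seen. HoxC held 32 WT SUZ12 peaks, of which 26 were lost and 4 kept. In HoxA 10 of 27 peaks were lost, in HoxB 16 of 34 and in HoxD 11 of 28. Lost peaks in HoxC reached a -log10 p of 90.3, against 21.5 in HoxA, 44.6 in HoxB and 48.9 in HoxD. None of the 32 HoxC peaks overlapped a SUZ12 peak of *Ezh2* KO ESCs, while 16, 12 and 15 peaks did so in HoxA, HoxB and HoxD. H3K27me3 of *Ezh2* KO ESCs, which the selection did not use, overlapped 9 of the 32 peaks in HoxC, all 27 in HoxA, 28 of 34 in HoxB and all 28 in HoxD. Peaks of 1 cluster are neighbours and were not treated as replicates.

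H3K27me3 remained called at most lost peaks in *Ezh2* KO ESCs, where SUZ12 was not. An *Ezh2* KO H3K27me3 peak overlapped 1534 lost peaks (79.5%, 95% CI 77.6 to 81.2) and 94.99% of kept peaks. In *Ezh1/2* dKO ESCs the H3K27me3 list overlapped 0 of 1930 lost and 23 kept peaks, and in *Ezh2* Y726D ESCs 1 lost and 7 kept peaks. *Ezh2* R685C H3K27me3 overlapped 1778 lost peaks (92.1%, 90.8 to 93.2), 98.9% of kept peaks and 64.1% of unmarked peaks. Both *Ezh2* KO and *Ezh2* R685C H3K27me3 were found at 1488 lost peaks, the first alone at 46, the second alone at 290 and neither at 106. The strongest H3K27me3 peak at a lost peak had a median -log10 p of 17.3 in WT, 75.4 in *Ezh2* KO and 87.2 in *Ezh2* R685C ESCs, and 21.2, 208 and 194 at kept peaks. These -log10 p values stand against the background of each library and are not amounts of H3K27me3.

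SUZ12 of *Ezh2* R685C ESCs and HA-tagged EZH1 marked a smaller share. The *Ezh2* R685C SUZ12 list, which was not part of the selection, overlapped 782 lost peaks (40.5%, 38.3 to 42.7) and 80.5% of kept peaks. HA-EZH1 overlapped 632 lost peaks (32.7%, 30.7 to 34.9) and 82.0% of kept peaks, while the untagged control overlapped 0.415% and 1.70%. Both were found at 370 lost peaks, *Ezh2* R685C SUZ12 alone at 412, HA-EZH1 alone at 262 and neither at 886. Of those 886 peaks without either, 554 overlapped an H3K27me3 peak in *Ezh2* KO ESCs. A set of 95 lost peaks (4.92%) had no peak in any of these 4 lists.

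**Figure D2:**
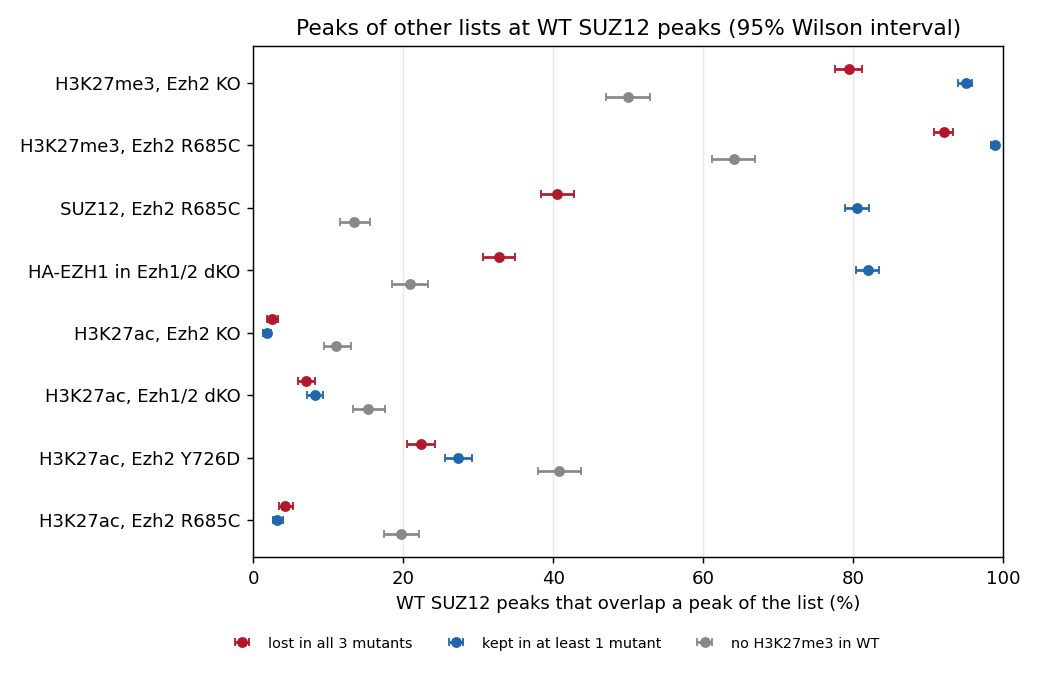
Share of lost, kept and unmarked WT SUZ12 peaks (x axis, %) that overlap a peak of each list on the y axis, with Wilson 95% intervals as bars. H3K27me3 of *Ezh2* R685C and *Ezh2* KO ESCs has the largest shares of lost peaks, 92.1% and 79.5%, and for SUZ12 of *Ezh2* R685C ESCs and HA-EZH1 the lost peaks lie well below the kept ones.

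The shares of both classes moved with the WT strength. In the weakest quintile, *Ezh2* KO H3K27me3 overlapped 71.7% of lost and 74.3% of kept peaks, *Ezh2* R685C SUZ12 31.2% and 28.4%, and HA-EZH1 12.8% and 16.2%. In the middle quintile the shares were 83.5% and 89.9% for H3K27me3, 41.9% and 59.2% for SUZ12, and 38.9% and 55.4% for HA-EZH1. In the strongest quintile H3K27me3 overlapped 44 of the 50 lost peaks and 99.0% of kept peaks, SUZ12 35 and 96.2%, and HA-EZH1 46 and 98.9%. All 10 strongest lost peaks overlapped an HA-EZH1 peak, and 9 of them an *Ezh2* KO H3K27me3 peak, the exception being *Meis2*. The shares also differed by position. H3K27me3 of *Ezh2* KO ESCs overlapped 90.7% of the lost peaks that flanked a kept peak and 73.9% of the solitary ones, and *Ezh2* R685C SUZ12 overlapped 60.4% and 30.7%.

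The lower methylation states were compared in broad regions, on the chromosomes that all 4 lists hold. For H3K27me2 these were 19 chromosomes with 1847 lost peaks, and for H3K27me1 9 chromosomes with 956. H3K27me2 regions covered 2.67% of the bases of lost peaks in WT ESCs and 96.7% in *Ezh2* KO ESCs, and 22.5% and 10.4% in the *Ezh2* Y726D and *Ezh1/2* dKO lines. In the same order of lines the values were 0.771%, 96.5%, 23.6% and 10.01% in kept peaks and 14.2%, 16.2%, 24.3% and 24.8% in the genome. H3K27me2 regions were thus scarce at lost peaks in WT and near complete in *Ezh2* KO ESCs, where 1830 of the 1847 peaks were touched by one. Within the *Ezh2* KO regions the denser blocks covered 68.5% of lost peak bases, while in the other 3 lines the blocks covered 0%.

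H3K27me1 regions covered 0.0473% of the lost peak bases in WT ESCs against 19.1% in *Ezh2* KO ESCs, and 35.5% and 11.5% in the *Ezh2* Y726D and *Ezh1/2* dKO lines. In that order they covered 0.2203%, 7.41%, 43.1% and 14.2% of kept peaks, and 14.5%, 18.8%, 12.6% and 10.99% of the genome. The *Ezh2* KO value was the one in which lost peaks exceeded kept peaks. Regions of both marks were listed in *Ezh1/2* dKO ESCs too, which lack EZH1 and EZH2, and no dense block of H3K27me1 covered a lost peak in any line. ATAC-seq regions covered 72.8%, 72.9%, 75.2% and 73.2% of lost peak bases in the same order, and the dense blocks in them 0.215% to 1.11%. Accessible regions of this kind covered 22.9% to 24.4% of the genome.

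**Figure D3:**
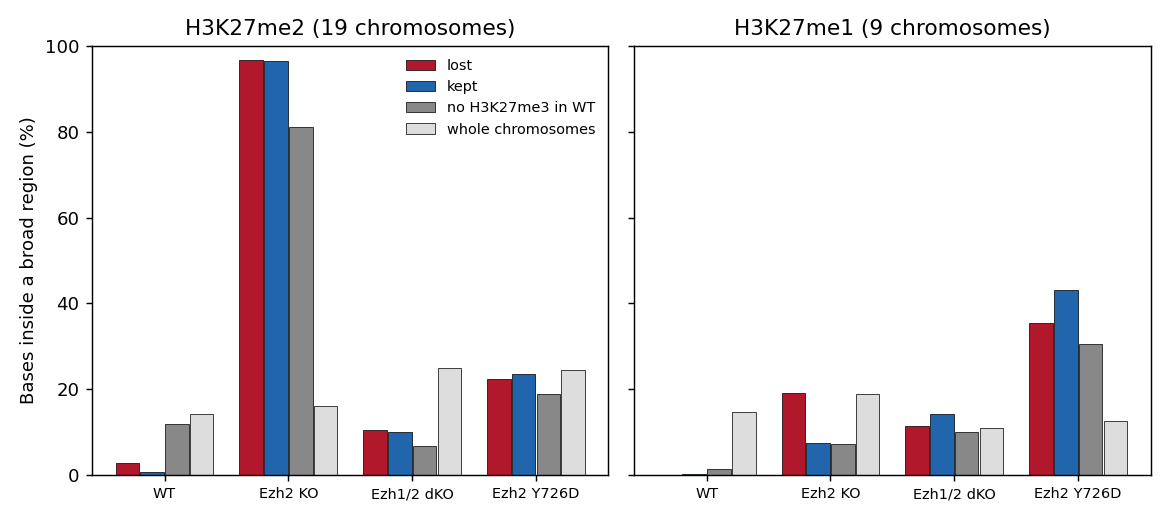
Share of bases (y axis, %) inside broad regions of H3K27me2 (left) and H3K27me1 (right) in the 4 lines (x axis), as bars from 1 library each, for lost, kept and unmarked SUZ12 peaks and the whole chromosomes. H3K27me2 regions cover 96.7% of lost peak bases in *Ezh2* KO ESCs and 2.67% in WT, and the highest H3K27me1 bar of lost peaks is that of *Ezh2* Y726D ESCs, 35.5%.

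H3K27ac was listed at a minority of lost peaks in each mutant. It overlapped 48 lost peaks in *Ezh2* KO (2.49%), 135 in *Ezh1/2* dKO (6.99%), 432 in *Ezh2* Y726D (22.4%, 20.6 to 24.3) and 83 in *Ezh2* R685C ESCs (4.30%). In kept peaks the shares were 1.78%, 8.19%, 27.3% and 3.22% and in unmarked peaks 11.1%, 15.3%, 40.8% and 19.7%. In these lines the H3K27ac lists had 25483, 17618, 40829 and 41185 entries, so the *Ezh2* Y726D and *Ezh2* R685C lists were of nearly equal length while their shares at lost peaks were 22.4% and 4.30%. WT H3K27ac was not used here, so a gain over WT cannot be stated.

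H3K27ac was listed at larger shares of the lost peaks without *Ezh2* KO H3K27me3. Of these 396 peaks, 10.4% had H3K27ac in *Ezh2* KO ESCs (7.72 to 13.7), against 0.456% of the 1534 with H3K27me3 (0.221 to 0.939). In the other lines, H3K27ac was present at 18.9% against 3.91% in *Ezh1/2* dKO, 46.2% against 16.2% in *Ezh2* Y726D and 15.7% against 1.37% in *Ezh2* R685C ESCs. Among the strongest quintile of SUZ12 peaks, *Ezh2* Y726D H3K27ac overlapped 28 of 50 lost peaks (interval 42.3% to 68.8%) and 29.4% of kept peaks (26.7 to 32.2). In the weakest quintile the shares were 13.6% and 17.6%. Of the 10 strongest lost peaks, 9 carried *Ezh2* Y726D H3K27ac, all but *Spry4*. The peaks at *Meis2* and *Tcfap2a* overlapped H3K27ac in all 4 mutant lines, and that at *Meis2*, unlike the other 9, overlapped H3K27me3 in neither *Ezh2* KO nor *Ezh2* R685C ESCs.

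Protein-coding genes with a lost but no kept peak within 5 kb of a TSS numbered 866, or 32.7% of the 2647 genes with a marked SUZ12 peak. A further 439 had both. Gene lists of textbook families held different shares of such lost-only genes. Of the families of developmental regulators, lost-only genes were 8 of 124 homeobox factors outside the Hox clusters (6.45%, 3.31 to 12.2), among them *Pou4f2*, *Meis2*, *Meis1* and *Six6*. Forkhead factors had 1 of 23 (*Foxj1*), Sox and T-box factors 2 of 24 (*Tbx20* and *Tbx3*), and Hox genes 6 of 38 (15.8%). Tissue-specific bHLH factors had 9 of 46 (19.6%), with *Lyl1* of blood and *Neurog3* of endocrine pancreas. In the order of these lists, 64, 9, 10, 25 and 16 more genes had both a lost and a kept peak. A low lost-only share is thus not a low share of genes with a lost peak.

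Lists of cell surface, transport and signalling genes ranged more widely, and no difference between lists was tested. Solute carriers had 30 of 64 (46.9%, 35.2 to 58.9), such as the cationic amino acid transporter *Slc7a2* and the serotonin transporter *Slc6a4*. A lost and a kept peak together lay near 4 more solute carriers. Axon guidance genes had 15 of 44 (34.1%), among them the netrin receptor *Unc5a* and *Robo3*, and ion channels 25 of 78 (32.1%). Wnt pathway genes had 8 of 34, with the agonist *Rspo1* and the antagonist *Sfrp1*, and genes of the FGF, BMP, TGF-beta and hedgehog pathways 9 of 48, with *Spry4*, *Fgf2* and *Fgf10*. Neurotransmitter receptors had 13 of 49, other G protein-coupled receptors 13 of 54, GATA, Zic and Sall factors 3 of 26, cadherins 4 of 21, matrix genes 4 of 25, cyclin-dependent kinase inhibitors 1 of 3 (*Cdkn2a*), pluripotency factors 1 of 2 and Polycomb subunits 2 of 6 (*Bmi1* and *Phc2*). The strength of the peaks moved with these shares: the strongest marked peak of a gene had a median -log10 p of 94.7 in the homeobox list and 24.9 among solute carriers, against 34.8 over all genes, and its part in the shares was not tested.

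**Figure D4:**
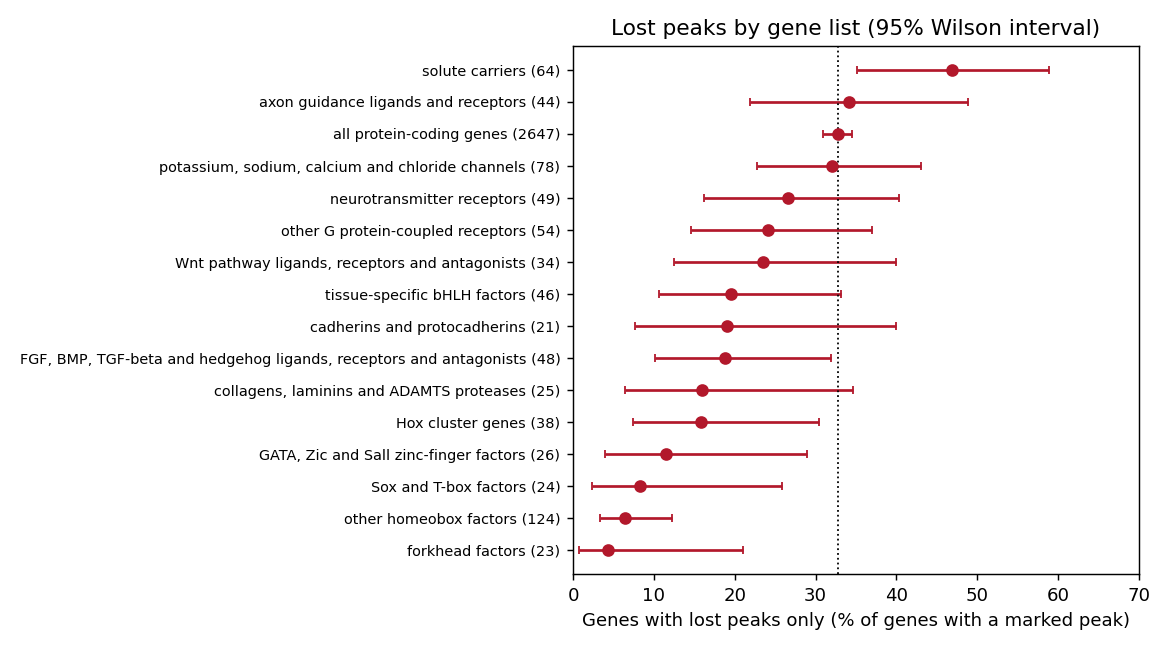
Genes with lost peaks only as a share (%) of the genes with a marked SUZ12 peak within 5 kb of a TSS, for each gene list with the number of such genes in brackets, with Wilson 95% intervals as bars and the share of all protein-coding genes as a dotted line. Other homeobox factors lie at 6.45% and solute carriers at 46.9%, against 32.7% of all genes. Genes with both a lost and a kept peak, such as 64 of the 124 homeobox factors, count in the denominator only.

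RNA was measured by SMART-seq2 in WT ESCs and the *Ezh2* Y726D, *Ezh1/2* dKO and *Ezh2* KO lines, with 2 libraries each of 3604123 to 5181553 counted reads. Values are normalized counts, reads per gene divided by a size factor of the library. In bulk RNA, more cells expressing a gene and more RNA per cell cannot be told apart. Nothing says whether the 2 libraries of a line came from separate cultures, so that p-values measure the spread between these libraries. Of the 866 lost-only genes, 784 were in the table. Per kb of exon, their median normalized count was 3.75 and 3.02 in the WT libraries. Genes with kept peaks only had 1.07 and 1.04, and genes without a SUZ12 peak 32.9 and 36.1. Genes with lost peaks only were thus expressed at low level in WT ESCs, above those with kept peaks only. The 388 genes in the table with both kinds of peak had the lower medians of 0.658 and 0.770.

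More of the 784 genes lay above WT than below it in *Ezh1/2* dKO and *Ezh2* Y726D ESCs. Both *Ezh1/2* dKO libraries lay above both WT libraries for 416 genes (53.1%, against 28.6% of all 18055 genes). For 62 genes both lay below (7.91%, against 20.7%). In *Ezh2* Y726D ESCs 297 genes lay above (37.9%, against 18.2%) and 58 below (7.40%, against 16.4%). In *Ezh2* KO ESCs 148 genes lay above (18.9%, against 16.4%) and 169 below (21.6%, against 16.4%). The median per kb of exon was 6.42 and 6.11 in the *Ezh1/2* dKO libraries, 5.32 and 5.24 in *Ezh2* Y726D and 2.70 and 3.31 in *Ezh2* KO. The comparisons share the WT libraries. Markers of primitive endoderm (*Gata4*, *Gata6*, *Sox17* and *Pdgfra*) summed to 5.34 to 25.03 in WT, 4.18 to 8.71 in *Ezh2* KO, 45.3 to 48.8 in *Ezh1/2* dKO and 20.5 to 28.0 in *Ezh2* Y726D ESCs, and neural markers (*Pax6*, *Nes* and *Tubb3*) to between 524 and 1325 in the 8 libraries, and their part in these shares was not tested.

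A gene was called where limma gave a Benjamini-Hochberg adjusted p under 0.1 and the log2 fold change was 1 or more in size. A mean normalized count of at least 5 was required, which 568 of the 784 genes reached, and the genes left out were the lowest. Of the 568 genes, 72 were called higher in *Ezh1/2* dKO ESCs (12.7%), where 3.63% of all 13872 genes tested were, and 2 lower, where 0.389% were. In *Ezh2* Y726D ESCs 41 were called higher (7.22%, against 1.66%) and 3 lower (against 1.06%). In *Ezh2* KO ESCs 2 were called higher (against 0.0937%) and 6 lower (against 0.31%). The median log2 fold change of the 568 was 0.78 in *Ezh1/2* dKO, 0.51 in *Ezh2* Y726D and -0.04 in *Ezh2* KO ESCs, and 0.01, -0.01 and -0.01 over all genes tested. Genes with kept peaks only had 46 of 676 called higher in the *Ezh2* Y726D and 93 in the *Ezh1/2* dKO line, with medians of 0.48 and 0.85, and the difference between the 2 gene groups was not tested.

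Single libraries weighed on these counts. Without either *Ezh1/2* dKO library, the limma calls of member genes in *Ezh1/2* dKO ESCs were lost, as were nearly all those over the genes tested. The lone library left is assumed to vary like the other groups. Over the fits that left out 1 library, the median log2 fold change of member genes there lay between 0.66 and 0.83. In *Ezh2* Y726D ESCs fewer genes were called higher without either *Ezh1/2* dKO library or either *Ezh2* KO library. The same was seen there without the second WT or second *Ezh2* Y726D library, each time among member genes and over all genes. In *Ezh2* KO ESCs more genes were called without the second WT library or either *Ezh2* Y726D library. Fewer were called there without the first WT library, either *Ezh1/2* dKO library or either *Ezh2* KO library. Both changes were seen among member genes and over all genes. With only WT and *Ezh2* Y726D libraries fitted, 5 member genes were called higher. Calls over all genes were not counted in that fit, so a change particular to member genes cannot be told from a general one. Under quantile normalization, 46 member genes were called higher in *Ezh1/2* dKO ESCs, with a median of 0.41. Over all genes tested, 290 were then called higher there in place of 503, and of all genes called 69.2% were higher in place of 90.3%. On the reads recovered from the table, edgeR called 70 and DESeq2 80 member genes higher in *Ezh1/2* dKO ESCs.

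The genes named from here on are, for each line and direction, the up to 5 called member genes with the largest fold change. In *Ezh2* KO ESCs, these were 2 paralogous homeodomain cofactors on the higher side. *Meis2* had 204 and 210 normalized counts in WT and 551 and 518 in *Ezh2* KO (log2 fold change 1.36 ± 0.19 SE, n = 2 libraries per line, limma adjusted p = 0.026), and 347 and 325 in *Ezh1/2* dKO and 489 and 336 in *Ezh2* Y726D ESCs. All 6 mutant libraries lay above both WT libraries. *Meis1* had 29.3 and 16.4 in WT libraries against 101 and 77.4 in *Ezh2* KO (1.96 ± 0.36, limma adjusted p = 0.091). In *Ezh1/2* dKO ESCs it had 178 and 129 (2.73 ± 0.36, limma adjusted p = 0.011), and in *Ezh2* Y726D ESCs 70.4 and 94.0. Both peaks near *Meis1*, unlike that at *Meis2*, overlapped H3K27me3 in *Ezh2* KO and *Ezh2* R685C ESCs. With edgeR's quasi-likelihood test the adjusted p was 0.037 for *Meis2* and 0.12 for *Meis1*. With limma, the *Ezh2* KO call of *Meis2* was lost without either *Ezh2* KO library or the first WT library (adjusted p up to 0.244), and that of *Meis1* without any WT, *Ezh2* KO or *Ezh1/2* dKO library (up to 0.345).

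On the lower side in *Ezh2* KO ESCs stood *Arhgef26*, a guanine nucleotide exchange factor of small GTPases, with 252 and 257 in WT libraries against 37.6 and 45.5 in *Ezh2* KO (log2 fold change -2.59 ± 0.24, limma adjusted p = 0.0046). It had 217 and 307 in *Ezh1/2* dKO ESCs and in *Ezh2* Y726D ESCs 167 and 183, and in neither line was it called. The *Ezh2* KO call held without any single library. *Inpp4b*, a phosphoinositide phosphatase, and *Dcc*, a netrin receptor, had no read in either *Ezh2* KO library. *Inpp4b* had 42.7 and 8.67 in WT, and its level in *Ezh2* KO ESCs was at least 8.50-fold lower, counted against a floor of 3 reads per library (limma adjusted p = 0.063), and 51.1 and 63.0 in *Ezh1/2* dKO ESCs. *Dcc* had 41.4 and 7.70 in WT and was at least 8.12-fold lower by the same floor (limma adjusted p = 0.066), and 71.7 and 87.0 in *Ezh1/2* dKO ESCs. *Arg2*, the mitochondrial arginase, had 44.0 and 25.03 in WT, 4.18 and 0 in *Ezh2* KO (-3.91 ± 0.71, limma adjusted p = 0.086) and 173 and 234 in *Ezh1/2* dKO ESCs. *Fam124a* had 43 reads in the WT and 3 in the *Ezh2* KO libraries, a ratio of 15.9 with a counting interval of 5.11 to 80.4 (limma adjusted p = 0.063). Without the first WT library, the bounds fell to 2.87-fold for *Inpp4b* and 2.55-fold for *Dcc*. The limma calls of *Inpp4b*, *Dcc*, *Arg2* and *Fam124a* were lost without the first WT library, either *Ezh1/2* dKO library or the second *Ezh2* KO library, and except for *Arg2* also without the first *Ezh2* KO library (adjusted p up to 0.343). With edgeR, *Arhgef26* alone of these 5 had an adjusted p under 0.1.

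The largest rises in *Ezh1/2* dKO ESCs among called member genes were those of *Fam159b*, *Dgat2*, *Calcr*, *Trpv4* and *Thy1*. *Dgat2*, the last enzyme of triglyceride synthesis, had 50.7 and 13.5 in WT, 43.9 and 48.4 in *Ezh2* KO, 315 and 352 in *Ezh1/2* dKO and 185 and 166 in *Ezh2* Y726D ESCs. Its log2 fold change was 3.61 ± 0.49 in *Ezh1/2* dKO ESCs (limma adjusted p = 0.011). *Thy1*, a surface glycoprotein of neurons, T cells and fibroblasts, had 10.7 and 4.81 in WT, 15.7 and 10.6 in *Ezh2* KO, 88.2 and 101 in *Ezh1/2* dKO and 84.7 and 76.1 in *Ezh2* Y726D ESCs. It rose by 3.53 ± 0.44 in *Ezh1/2* dKO and by 3.30 ± 0.44 in *Ezh2* Y726D ESCs on the log2 scale (limma adjusted p = 0.0094 and 0.013). *Thy1* is also 1 of 3 fibroblast markers whose summed count was 4.81 to 12.01 in WT, 13.5 to 16.7 in *Ezh2* KO, 98.1 to 115 in *Ezh1/2* dKO and 86.1 to 88.3 in *Ezh2* Y726D ESCs. The collagens *Col1a1* and *Col1a2* stayed at or below 11.5 in each library. *Col1a1* had 1.33 and 0 in WT, 4.12 and 11.5 in *Ezh1/2* dKO and 1.78 and 6.71 in *Ezh2* Y726D ESCs. *Col1a2* had 0 and 0, 5.77 and 2.66, and 1.78 and 3.36 in the same order. The part of such cells in the result was not tested. *Fam159b* had 6.67 and 9.63 in WT, 105 and 188 in *Ezh1/2* dKO and 8.92 and 10.1 in *Ezh2* Y726D ESCs (3.97 ± 0.46 in *Ezh1/2* dKO, limma adjusted p = 0.0075). *Calcr*, the calcitonin receptor, and *Trpv4*, a cation channel of osmotic sensing, rose by 3.60 ± 0.61 and 3.54 ± 0.65 on the log2 scale, from at most 5.78 and 9.63 in WT to no less than 39.1 and 55.2 in *Ezh1/2* dKO ESCs (limma adjusted p = 0.026 and 0.031).

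The 2 member genes called lower in *Ezh1/2* dKO ESCs follow. *Mcam*, a cell adhesion molecule, had 261 and 314 in WT and 120 and 101 in *Ezh1/2* dKO (-1.37 ± 0.23, limma adjusted p = 0.025). *Pnma2* had 232 and 168 in WT, 77.4 and 61.0 in *Ezh2* KO and 108 and 82.6 in *Ezh1/2* dKO (-1.06 ± 0.27, limma adjusted p = 0.084), and 193 and 254 in *Ezh2* Y726D ESCs. It was also called lower in *Ezh2* KO ESCs, with the larger change (-1.51 ± 0.27, limma adjusted p = 0.086, edgeR adjusted p = 0.12). None of the 7 calls named for *Ezh1/2* dKO ESCs held without either of its own libraries. That of *Pnma2* was also lost without either *Ezh2* KO library or the first WT library.

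In *Ezh2* Y726D ESCs the largest rises besides *Thy1* were those of *Zfp36l3*, *Hoxc10*, *Arhgap22* and *Slc13a5*. *Slc13a5*, a citrate transporter, had 28.0 and 17.3 in WT, 103 and 249 in *Ezh2* Y726D (2.80 ± 0.52, limma adjusted p = 0.039) and 199 and 247 in *Ezh1/2* dKO ESCs. *Arhgap22*, a GTPase-activating protein of Rac, had 2.67 and 5.78 in WT and 65.1 and 28.0 in *Ezh2* Y726D (3.13 ± 0.54, limma adjusted p = 0.032). *Hoxc10* had 0 and 4.81 in WT, 24.96 and 24.6 in *Ezh2* Y726D (3.42 ± 0.79, limma adjusted p = 0.074), 13.6 and 15.5 in *Ezh2* KO and 11.5 and 23.1 in *Ezh1/2* dKO ESCs, and its 3 lost peaks lay in HoxC, with no H3K27me3 peak in *Ezh2* KO ESCs. Genes of this cluster overlap and reads were counted without strand, so reads of neighbours may be shared. *Zfp36l3*, an RNA-binding zinc-finger gene on the X chromosome, had 3 reads in WT and 63 in *Ezh2* Y726D libraries, a ratio of 18.6 (counting interval 6.09 to 92.8, limma adjusted p = 0.082). The calls of *Thy1* and *Arhgap22* in *Ezh2* Y726D ESCs held without any single library. That of *Slc13a5* was lost without the second WT or second *Ezh2* Y726D library (limma adjusted p up to 0.127). The limma call of *Hoxc10* held in 1 of 8 fits that left out a library, that without the second WT library (adjusted p up to 0.189 in the others). For *Zfp36l3* it held in 2 of 8, those without the first WT or the first *Ezh2* Y726D library (up to 0.302). With edgeR neither gene was called, at an adjusted p of 0.11 each. The strongest lost peaks at *Hoxc11* and *Hoxc8* lay at genes near silence in all lines, with at most 2.90 and 8.95 normalized counts.

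**Figure D5:**
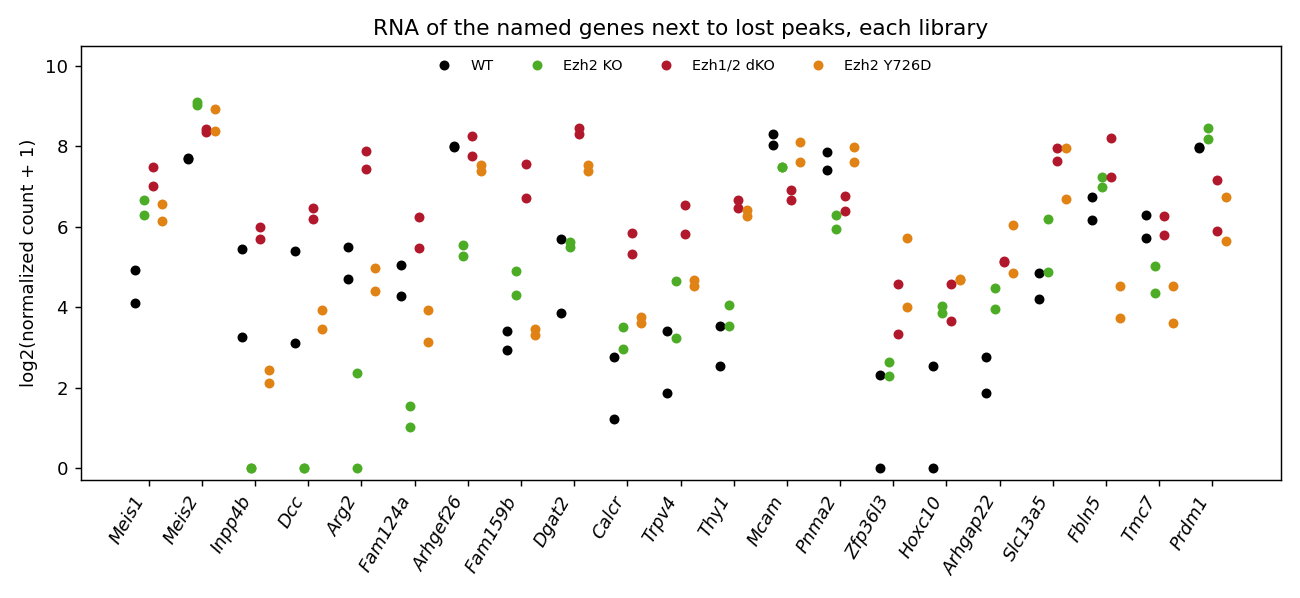
RNA level as log2 of the normalized count plus 1 (y axis) of the named genes (x axis), 1 point per library, with 2 libraries for each of the 4 lines in colour. *Arhgef26* lies low in both *Ezh2* KO libraries, while *Thy1* lies high in the *Ezh1/2* dKO and *Ezh2* Y726D libraries.

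Of the 3 member genes called lower in *Ezh2* Y726D ESCs, *Prdm1*, a repressor needed for germ cell specification, had 251 and 250 in WT, 105 and 49.2 in *Ezh2* Y726D (-1.78 ± 0.43, limma adjusted p = 0.086) and 143 and 58.6 in *Ezh1/2* dKO ESCs. *Fbln5*, an elastic fibre protein, had 70.7 and 107 in WT and 22.3 and 12.3 in *Ezh2* Y726D (-2.32 ± 0.41, limma adjusted p = 0.033), but 150 and 293 in *Ezh1/2* dKO ESCs. *Tmc7* had 77.4 and 52.0 in WT and 22.3 and 11.2 in *Ezh2* Y726D (-1.94 ± 0.46, limma adjusted p = 0.078). The limma call of *Fbln5* was lost without the second WT library (adjusted p = 0.101). Those of *Tmc7* and *Prdm1* held in 1 and 3 of 8 fits that left out a library, with an adjusted p of up to 0.251 and 0.264 in the others, and edgeR gave *Prdm1* an adjusted p of 0.11. The lost peaks at all 3 genes lacked H3K27me3 in *Ezh2* KO ESCs and had it in *Ezh2* R685C ESCs. *Bmi1*, at one of the strongest lost peaks, had 50.7 and 77.0 in WT, 112 and 112 in *Ezh2* KO, 162 and 173 in *Ezh1/2* dKO and 160 and 112 in *Ezh2* Y726D ESCs. It rose by 1.41 ± 0.28 on the log2 scale in *Ezh1/2* dKO ESCs (limma adjusted p = 0.039), and in the other 2 lines it was not called. *Spry4*, *Nt5e*, *Pou4f2* and *Sdc1* were not called in any line.

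By gene list, the calls were few in number, as were the genes tested. Lists here follow the gene symbols of the RNA table, which for some genes differ from those of the annotation. Of 31 lost-only solute carriers in the table, 22 were tested, with *Slc13a5*, *Slc7a2* and *Slc7a8* called higher in *Ezh1/2* dKO and *Slc13a5*, *Slc7a6* and *Slc7a8* among those higher in *Ezh2* Y726D ESCs. Of 23 channels, 10 were tested, with *Ano10*, *Kcnj3*, *Trpc6* and *Trpv4* higher in *Ezh1/2* dKO and *Kcnj3* in *Ezh2* Y726D ESCs. In *Ezh1/2* dKO ESCs 4 of the 10 channels and 3 of the 22 solute carriers were thus called higher. The shares there were 12.7% of member genes and 3.63% of all genes. In *Ezh2* Y726D ESCs 1 and 4 were called higher, beside 7.22% of member genes and 1.66% of all genes. These differences were not tested. Of 7 homeobox factors outside the clusters, 5 were tested, with *Meis1* higher in all 3 lines and *Meis2* in *Ezh2* KO ESCs. The 14 axon guidance genes had 9 tested, with *Dcc* lower in *Ezh2* KO ESCs as the call. *Tbx20*, *Cdh3* and *Hoxc10* were called higher in *Ezh1/2* dKO ESCs, and *Hoxc10* and the muscarinic receptor gene *Chrm4* in *Ezh2* Y726D ESCs. *Calcr* was called higher among the other receptors and *Bmi1* among the Polycomb subunits, both in *Ezh1/2* dKO ESCs. In the 8 lists that remain, 18 of 32 genes were tested and limma called 0 in each line. At an unadjusted p under 0.05 they held 7 genes in *Ezh1/2* dKO ESCs and 4 each in the *Ezh2* KO and *Ezh2* Y726D lines. Over all 13872 genes tested, 11.99% were higher and 6.62% lower at this limma p in *Ezh1/2* dKO ESCs. The shares higher and lower were 4.13% and 4.70% in *Ezh2* KO and 7.47% and 6.81% in *Ezh2* Y726D ESCs. The difference between the 18 genes and all genes was not tested. Among the 18, edgeR called 1 gene, in *Ezh1/2* dKO ESCs, and DESeq2 2 there and 1 in each of the other lines.

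RNA was set beside the marks that the selection did not use. Of the 784 genes, 588 had *Ezh2* KO H3K27me3 at a lost peak within 5 kb and 196 had none. In *Ezh2* KO ESCs both libraries lay above both WT libraries for 13.6% of the former and 34.7% of the latter, and below for 25.3% and 10.2%. Over all genes there, 16.4% lay above and 16.4% below. In *Ezh1/2* dKO ESCs, 53.1% of each lay above (28.6% of all genes), and in *Ezh2* Y726D ESCs 36.9% and 40.8% (18.2% of all genes). The 2 groups differed in level, with a WT median per kb of exon of 2.21 and 1.998 for genes with H3K27me3 and 12.5 and 10.6 for genes without, and the part of the level in the difference was not tested. *Ezh2* Y726D H3K27ac lay within 1 kb of a TSS of 321 of the 784 genes. Of these, 24 of 287 tested were called higher in *Ezh2* Y726D ESCs (8.36%, 5.68 to 12.1), against 17 of 281 without such a peak (6.05%, 3.81 to 9.47). Their median level per kb in WT ESCs was 10.1 against 1.56. In *Ezh1/2* dKO ESCs, 21 of 130 genes with H3K27ac were called higher (16.2%, 10.8 to 23.4) and 51 of 438 without (11.6%, 8.97 to 15.0).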

How the data were processed

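Deposited lists of SUZ12, H3K27me3, H3K27ac and HA peaks and of broad H3K27me1, H3K27me2 and ATAC-seq regions were used with the RNA-seq table. RING1B, H2AK119ub, WT H3K27ac, input, the EZH2 rescues and the DMSO and MG132 samples were not used here. The authors mapped reads to mm9 by Bowtie, kept unique alignments, removed duplicates by PICARD and ran MACS2 on each library, and from the deposited lists the -log10 p of each peak was taken, at least 10 in the narrow lists. HA peaks were listed without a value. For RNA, the authors used TopHat, HTSeq-count without strand and DESeq2. The signal deposited by the authors is the normalized count, a read count over a size factor, and 100% of values were whole multiples (tolerance 0.001) of the smallest value in their column, so reads were recovered for edgeR and DESeq2. The authors' tables of DESeq2 fold changes and p-values were not used.

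Overlaps needed 1 bp. Genes came from GENCODE of mm9, to which 16570 of 18055 table genes were matched by symbol, 756 by synonym and 729 not. RNA was tested with limma 3.58.1 in R 4.3.3 (trend, log2 of the normalized count plus a pseudocount of 1, which understates changes of low genes, all 8 libraries), with edgeR 4.0.16 and DESeq2 1.42.0 as alternatives. Over all 13872 genes tested, limma called 503 higher and 54 lower in *Ezh1/2* dKO ESCs, edgeR 516 and 52 and DESeq2 520 and 74. Other steps used Python 3.11.15, numpy 2.4.6, pandas 2.3.3, scipy 1.17.1 and matplotlib 3.10.9, and the calculations were tested on simulated data.

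The regions and gene lists were chosen with earlier results of these data known. Named were the 10 strongest lost peaks, 3 on each side of the edge of the rule, up to 5 called genes per line and direction by fold change with both libraries beyond both WT libraries, and up to 4 examples per list by WT strength. Genes singled out beyond this, and the split by *Ezh2* KO H3K27me3, were chosen after their values were seen.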

Additional observations from a re-analysis of the deposited data

How the results depend on the processing

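The spread between libraries against which a median fold change counts as moved was defined after the values were seen, as the combined SD of both groups (0.0921 in *Ezh1/2* dKO, 0.0847 in *Ezh2* Y726D and 0.163 in *Ezh2* KO). The depth of the peak lists is unknown and limits each share. Under the alternatives other than leaving out a library, 141 values stayed within their counting interval, this spread or 1.5 times a count, and the 82 that did not are these.

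With at least 50% of the WT peak covered as the rule, the shares of lost peaks were 85.3% for *Ezh2* KO H3K27me3, 53.6% for *Ezh2* R685C SUZ12, 94.96% for *Ezh2* R685C H3K27me3, 47.8% for HA-EZH1 and 22.0% within 5 kb of a kept peak. Coverage was then 1.47% and 98.1% for H3K27me2 in WT and *Ezh2* KO and 16.5% and 38.6% for H3K27me1 in *Ezh2* KO and *Ezh2* Y726D, median width 835 bp and median -log10 p 21.3. With a mutant SUZ12 peak within 1 kb counted as kept, the shares were 75.6% for *Ezh2* KO H3K27me3, 36.7% for *Ezh2* R685C SUZ12, 29.2% for HA-EZH1, 25.3% for *Ezh2* Y726D H3K27ac and 19.3% near a kept peak, ATAC-seq coverage was 74.8%, 75.4% and 75.3% in WT, *Ezh2* KO and *Ezh1/2* dKO, and the median width 673.5 bp.

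With WT SUZ12 peaks of p at most 1e-20, 732 peaks were lost. Their shares were 86.5% for *Ezh2* KO H3K27me3, 52.2% for *Ezh2* R685C SUZ12, 94.9% for *Ezh2* R685C H3K27me3 and 54.2% for HA-EZH1, and for H3K27ac 31.7% in *Ezh2* Y726D, 11.1% in *Ezh1/2* dKO, 6.56% in *Ezh2* R685C and 3.83% in *Ezh2* KO, 80.6% with a TSS within 5 kb and 29.2% near a kept peak, with H3K27me2 coverage of 1.81% in WT, H3K27me1 coverage of 14.3% in *Ezh2* KO, a median width of 1009.5 bp and a median -log10 p of 28.0. TSS windows of 1 and 10 kb held 59.8% and 85.6% of lost peaks. With the dense blocks in place of broad regions, coverage was 68.5% for H3K27me2 in *Ezh2* KO, 0 for the other H3K27me2 and H3K27me1 values, and 0.215%, 1.11%, 0.227% and 0.322% for ATAC-seq in the order of the plot.

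Counts of member genes called higher and lower in *Ezh2* KO ESCs were 1 and 1 without a filter, under quantile normalization, with edgeR and with the replicate block, 7 and 11 with DESeq2, and 1 and 2 with only the 2 groups compared, and 1 was higher at a mean of at least 20. In *Ezh1/2* dKO ESCs, 1 was lower without a filter and 4 under quantile normalization, with DESeq2 and with only the 2 groups. Under quantile normalization 46 were higher, with medians of 0.41 there and 0.40 in *Ezh2* Y726D ESCs. In *Ezh2* Y726D ESCs, 1 was lower without a filter, and 5 were higher and 0 lower with only the 2 groups. The *Ezh1/2* dKO median was 0.68 at a mean of at least 20. A 10 kb window gave medians of 0.42 in *Ezh2* Y726D and 0.66 in *Ezh1/2* dKO ESCs. With genes that also had a kept peak, 113 were higher in *Ezh1/2* dKO and 69 higher and 5 lower in *Ezh2* Y726D ESCs. The added genes alone had 41 of 212 higher in *Ezh1/2* dKO ESCs (19.3%, against 3.63% of all genes). In *Ezh2* Y726D ESCs they had 28 (13.2%, against 1.66%). Calls over all genes were not counted without a filter, at a mean of at least 20, with the replicate block or with only the 2 groups.

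Leaving out 1 library at a time gave 0 to 9 higher and 1 to 12 lower genes in *Ezh2* KO, 0 to 95 and 0 to 5 in *Ezh1/2* dKO and 16 to 45 and 1 to 7 in *Ezh2* Y726D ESCs, with medians of -0.15 to 0.07, 0.66 to 0.83 and 0.41 to 0.53. Replicate numbers are shared between lines, but deviations of same-numbered libraries correlated at -0.409 to 0.288, so the numbers were not used as pairs, and the block left 69 genes higher in *Ezh1/2* dKO ESCs. With the WT numbers crossed, an alternative chosen after seeing the data, the block gave 11 higher and 19 lower genes in *Ezh2* KO, 134 and 6 in *Ezh1/2* dKO and 93 higher in *Ezh2* Y726D ESCs. These are counts of member genes, and calls over all genes were not counted with either block. The causes of these changes were not tested.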
